A study of Mus musculus with 20 samples.

Results

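The set consists of 45 genes of the cell cycle and mitosis, measured in mouse liver with 1-colour Agilent arrays. All non-control probes named for one of these genes, by its current symbol or a synonym, were collected, which gave 60 probes, and the brightest probe above background stood for each gene. The 45 genes are among 34741 gene names on the array. A gene was tested where 4 or more of the 5 arrays of some group had its probe well above background, by the scanner software's own flag, and 34 of the 45 genes met this among 21998 genes tested in all.

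In a dividing cell, D-type cyclins and E2F factors start a wave of transcription that supplies cyclin E, the helicase and licensing proteins that prepare replication origins, and the enzymes that make deoxynucleotides. A later wave, driven by factors such as B-MYB and FOXM1 at promoters with CHR and CCAAT elements, supplies the kinases, motors and spindle proteins of mitosis. Hepatocytes of an adult liver rarely divide, and estradiol is known as a growth signal in several of its target tissues.

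The mice were wild type (ERa+/+) or null for estrogen receptor alpha, the main estradiol receptor of liver, and wild types came from the same parents as nulls. All 20 mice, controls included, had been ovariectomized at 4 weeks of age. At 9 weeks they received estradiol (E2, 1 mg/kg) or placebo by oral gavage, the placebo being castor oil with 5% ethanol, and all were sacrificed 4 hours later under ketamine and xylazine. The groups were wild type with placebo, wild type with E2, null with placebo and null with E2, with 5 animals each and 1 array per animal. Mice were housed 5 per cage, and the labels do not say which animals shared a cage. Levels are log2 processed intensities relative to the 75th percentile of each array, so that 0 is the brightness of that percentile. A level belongs to its probe, and levels of different genes are not compared. All 12 hepatocyte markers listed, among them Alb, Ttr and Hnf4a, were well above background on all 20 arrays. Esr1, the deleted gene, stood at 0.39 ± 0.25 (SD, n = 5) in wild types with placebo and 0.60 ± 0.41 with E2, against -1.61 ± 0.48 and -1.63 ± 0.31 in nulls, with no overlap between the genotypes. Between 51.6% and 70.0% of spots were well above background on an array, the highest share being that of wild-type E2 animal 1. Arrays lay on 4 slides. Animals also carry label numbers, and the 7 numbered below 750 are 2 wild types with E2, 3 nulls with placebo, 2 nulls with E2 and 0 wild types with placebo. The limit of 750 was set here and marks no break in the numbers. It falls between 743 and 753, the lowest number of a wild type with placebo, so the 0 follows from its place. Null E2 animal 5 and wild-type placebo animal 5 stood apart, at 2024 and 2082. The labels do not say what these numbers record. Because the tissue is bulk liver, fewer dividing cells and less RNA per cell cannot be told apart.

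Between 29 and 37 of the 45 genes were well above background on a given array. Of the 34 tested genes, 26 were above background on all 20 arrays. These held 4 of 5 regulators of the passage from G1 to S, 7 of 8 origin licensing genes and all 5 genes of DNA synthesis and nucleotide supply. Detection was sparser among genes of mitosis: 10 of 15 genes of mitotic entry and the checkpoint and 8 of 12 genes of chromosome, spindle and cytokinesis could be tested. The 11 genes that could not be tested were Ccne2, Cdc6, Aurkb, Bub1, Bub1b, Ttk, Melk, Top2a, Kif11, Nusap1 and Cenpf, and each was above background on at most 4 arrays. Top2a, the topoisomerase that untangles sister chromatids, was not above background on any array, and the same held for Ccne2, Bub1 and Melk. Cdc6, which loads the replicative helicase, was above background in 2 animals, wild-type placebo animal 5 at -2.08 and null E2 animal 1 at -2.81.

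**Figure D1:**
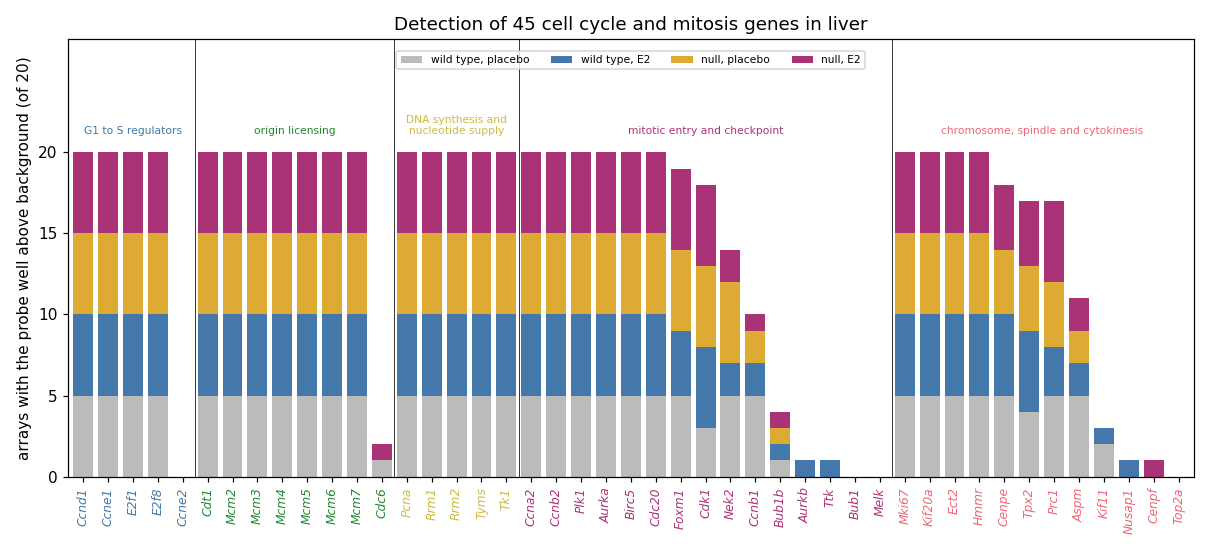
Number of arrays, of 20, on which the probe used for each of the 45 genes was well above background, stacked by group (5 arrays each) and ordered by role. All 5 genes of DNA synthesis and nucleotide supply reach 20 arrays, while Top2a, Ccne2, Bub1 and Melk have no bar.

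The first comparison asked whether E2 altered these genes within 4 hours in wild types. Of the 34 tested genes, 1 passed the threshold of an adjusted p below 0.05 by limma, the spindle gene Aspm, which fell; over all genes tested, 0.318% passed. Aspm met the filter only through the wild types with placebo, where it was high, and with no filter its adjusted p was 0.0749. The log2 difference was below 0 for 27 of the 34, against 49.4% of all genes, and their median was -0.16, against 0.00 over all genes. These 27 include Aspm, and also Ccnb1 and Nek2, which likewise met the filter only through placebo groups, where they were high. For such genes the filter favours a difference below 0. At an unadjusted p below 0.05 there were 7 genes, where all genes gave 8.29%. Only Aspm and Mcm4 had groups that did not overlap, where 1.5% of all genes did. By role, the difference was below 0 for 4 of 4 G1 to S regulators (median -0.33), 5 of 7 licensing genes (-0.19), 4 of 5 genes of DNA synthesis (-0.10), 9 of 10 genes of mitotic entry (-0.14) and 5 of 8 spindle genes (-0.08). The animals numbered below 750 were the lowest of all 20 for 27 of the 34 genes, and wild-type E2 animal 1 alone was the lowest for 11. The same count was not made over all genes. Without those 7 animals the difference was below 0 for 22 of 34 genes with a median of -0.10, and Aspm no longer passed. Scaling on the median of each array in place of its 75th percentile moved the median of all genes to -0.22 and put 31 of the 34 genes below 0, with 28 below the median of all genes under both scalings. Within slides the median was -0.13 on slide 1, -0.48 on slide 2 and 0.14 on slide 4, read from 2 or 1 E2 animals against 1 placebo animal each, so the sign of the shift was not the same on every slide.

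In nulls E2 gave no call among the 34 genes by limma, where 0.00455% of all genes passed. The difference was below 0 for 13 of 34 genes, against 53.1% of all genes, with a median of 0.03. Scaled on the array median, which moved the median of all genes to -0.12, 23 of 34 were below 0, and 13 were below the median of all genes under both scalings. There were 5 genes at an unadjusted p below 0.05, against 6.05% of all genes, and they were Nek2, Ccnb2, Tyms, Mcm2 and Hmmr. Groups did not overlap for 1 gene, Ccnb2, against 0.814% of all genes. The difference between the E2 effect in wild types and that in nulls, tested as an interaction, gave no call among the 34 genes, where 0.164% of all genes passed. It was below 0 for 26 of 34 genes, against 46.6% of all genes, and its median was -0.18. Aspm and Ccnb1, which met the filter only through the wild types with placebo, are among the 26. At an unadjusted p below 0.05 it had 5 genes, against 7.39% of all genes: Mcm4, Ect2, Aspm, Mcm2 and Tyms.

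Between genotypes, nulls were compared with wild types within each treatment; these comparisons share their groups with those of E2. Under placebo no gene of the 34 passed, where 0.0727% of all genes did, and 27 of 34 differences were below 0, against 46.6% of all genes, with a median of -0.16. Aspm and Ccnb1 are among these 27, and both met the filter only through the wild types with placebo. An unadjusted p below 0.05 was reached by 2 genes, against 10.1% of all genes, and the same 2, Aspm and Mcm7, had groups that did not overlap, against 1.84% of all genes. Under E2 none of the 34 passed, where 0.464% of all genes did. The differences were below 0 for 15 of 34 genes, against 50.3% of all genes, with a median of 0.11; scaled on the array median, which moved the median of all genes to 0.11, 11 of 34 were below 0, and 15 were below the median of all genes under both scalings. At an unadjusted p below 0.05 there were 5 genes, against 9.63% of all genes, and 0 genes had groups that did not overlap, against 2.5% of all genes. The 5 genes were Ect2, Mcm4, Tyms, Tpx2 and Mcm2. Without the 7 animals numbered below 750, 3 of them nulls with placebo, the placebo comparison had 18 of 34 differences below 0.

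**Figure D2:**
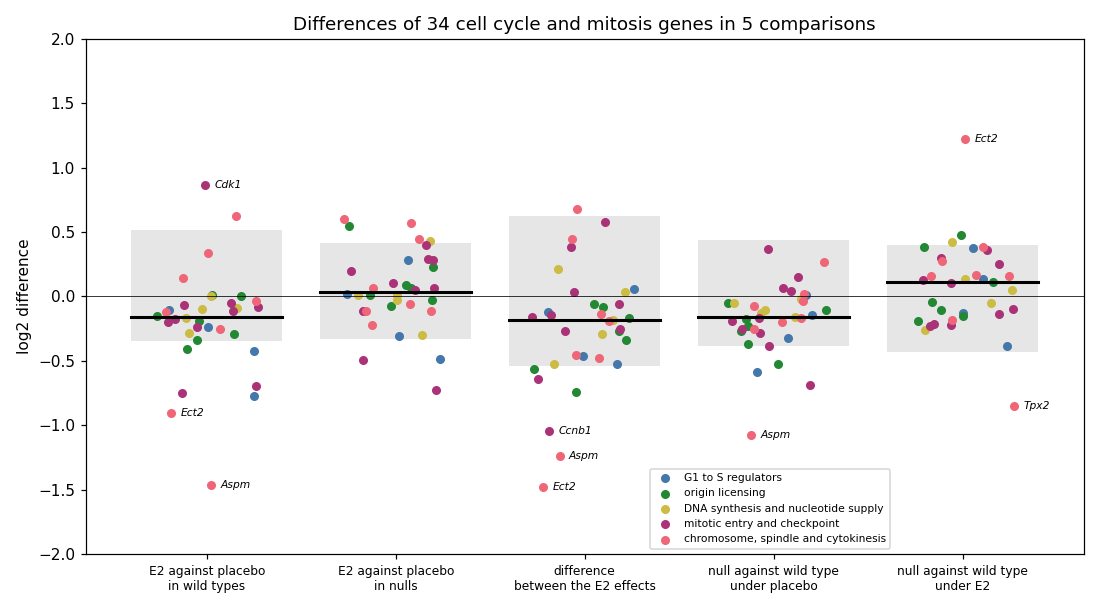
Log2 differences of the 34 tested genes in 5 comparisons, 1 point per gene, coloured by role; black lines mark the genes' median and grey bars span the central 90% of all 21998 genes. Most points lie inside the grey bars, and for E2 in wild types Aspm is the lowest point (-1.47) and Cdk1 the highest (0.87).

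Of the regulators that carry a cell from G1 into S, Ccnd1 encodes cyclin D1, the partner of CDK4 and CDK6. It was at 3.24, 2.54, 2.60, 2.53 and 3.22 in the wild types with placebo and at 2.25, 2.64, 2.18, 3.27 and 2.60 in those with E2. In nulls it was at 1.98, 3.28, 2.23, 3.31 and 2.59 with placebo and at 2.57, 2.90, 2.47, 3.21 and 3.68 with E2. All 4 groups overlapped. The difference with E2 was -0.24 ± 0.29 (SE) in wild types and 0.29 ± 0.29 in nulls, with adjusted p-values of 0.856 and 0.931. E2f1, an activating E2F factor, varied less, with group means from -1.83 ± 0.31 (SD) in wild types with E2 to -1.70 ± 0.27 in nulls with E2, and its difference with E2 in wild types was -0.10 ± 0.19. E2f8, a repressor of E2F targets known for its part in hepatocyte polyploidy, had a range of 2.54 over 20 animals. Wild types with placebo were at 1.38, 0.21, 1.56, 1.43 and 0.85, and those with E2 at -0.57, -0.85, 0.40, 1.31 and 1.29. Nulls were at 0.21, 0.61, -0.38, 1.39 and 0.66 with placebo and at -0.98, -0.46, 1.45, 1.03 and -0.08 with E2. The groups overlapped, and no wild type with placebo was as low as the lowest animals of the other 3 groups. Its mean was lower by 0.77 ± 0.49 on the log2 scale with E2 in wild types and lower by 0.59 ± 0.49 in nulls than in wild types under placebo, with adjusted p-values of 0.696 and 0.754. Ccne1, cyclin E1, had a group mean of -0.94 ± 0.56 in wild types with placebo and -1.36 ± 0.31, -1.26 ± 0.25 and -1.74 ± 0.46 in wild types with E2, nulls with placebo and nulls with E2.

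The licensing group holds Cdt1, which brings the helicase to origins, and the 6 subunits of that helicase, Mcm2 to Mcm7. Mcm4 was at 1.04, 1.22, 0.94, 1.16 and 0.92 in wild types with placebo and at 0.39, 0.78, 0.84, 0.74 and 0.86 in those with E2. Every E2 animal lay below every placebo animal, and animal 1 lay lowest. Nulls were at 0.72, 0.86, 0.74, 0.97 and 1.08 with placebo and at 0.70, 1.08, 1.05, 1.21 and 1.50 with E2, and these groups overlapped. The difference with E2 was -0.34 ± 0.13 in wild types and 0.23 ± 0.13 in nulls, and the interaction was -0.57 ± 0.18, with adjusted p-values of 0.486, 0.828 and 0.515 by limma. Mcm7 was at 2.15, 2.14, 2.52, 2.43 and 2.07 in wild types with placebo and at 2.06, 1.85, 1.89, 1.80 and 1.87 in nulls with placebo. These groups just failed to meet, and the nulls were lower by 0.37 ± 0.13 on the log2 scale (adjusted p = 0.338). With E2, Mcm7 ranged from 1.46 to 2.22 in wild types and from 1.67 to 2.07 in nulls. Mcm2 was at -2.84, -2.90, -2.57, -2.33 and -2.34 in wild types with placebo and at -2.50, -2.87, -3.33, -2.61 and -2.65 with E2. In nulls it was at -3.17, -2.67, -3.48, -2.63 and -2.37 with placebo and at -2.76, -2.10, -2.78, -2.06 and -1.89 with E2. The 3 highest animals of all were null E2 animals 2, 4 and 5, and the groups overlapped. The null E2 group was higher than wild types with E2 by 0.48 ± 0.23 (adjusted p = 0.518), and the interaction was -0.74 ± 0.32 (adjusted p = 0.651). For Mcm3, Mcm5 and Mcm6 the difference with E2 in wild types was 0.01 ± 0.13, 0.01 ± 0.24 and -0.15 ± 0.17. The interaction was below 0 for all 7 licensing genes tested, and none of them passed.

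Among genes of DNA synthesis, Pcna, the sliding clamp of DNA polymerase, had group means of 3.28 ± 0.07, 3.28 ± 0.08, 3.26 ± 0.24 and 3.23 ± 0.11 in wild types with placebo, wild types with E2, nulls with placebo and nulls with E2. Its difference with E2 was 0.00 ± 0.10 in wild types, and its total range over 20 animals was 0.63. Tk1, thymidine kinase, was at 2.90, 2.92, 3.11, 3.55 and 3.39 in wild types with placebo and at 2.14, 2.35, 3.40, 3.55 and 3.61 with E2 (difference -0.17 ± 0.26, adjusted p = 0.897). The E2 group divided into 2 low and 3 high animals, the low ones being those numbered below 750. Rrm2, the small subunit of ribonucleotide reductase, ranged from 1.75 to 2.94 in wild types with placebo, 1.46 to 2.63 with E2, 2.04 to 2.57 in nulls with placebo and 1.76 to 2.37 with E2. Rrm1, the large subunit, was among the genes at an unadjusted p below 0.05 and is named for that reason; it had means of 0.51 ± 0.13 and 0.22 ± 0.18 in wild types with placebo and E2 (difference -0.29 ± 0.12, adjusted p = 0.526). Tyms, thymidylate synthase, was higher in nulls with E2 than with placebo by 0.43 ± 0.17 (adjusted p = 0.818); null E2 animal 3 was at -1.05 and the other animals of that group between -2.32 and -1.88.

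Of the genes of mitotic entry, Cdk1 encodes the kinase that starts mitosis. Its kept probes had differences of opposite sign with E2 in wild types, and both were dim. Its brightest probe was at -2.93, -4.65, -4.64, -4.02 and -3.97 in wild types with placebo and at -2.63, -3.25, -3.24, -3.47 and -3.30 with E2. Placebo animal 1 was high within its group and made the groups overlap. Nulls ranged from -3.84 to -3.54 with placebo and from -3.84 to -3.19 with E2. The difference in wild types was 0.87 ± 0.25 (adjusted p = 0.311), and without placebo animal 1 it was 1.14 with an adjusted p of 0.00369. That animal was not flagged as far from its group, and no other animal left out gave a call. Alternatives that did not leave out a single animal gave 0.25 to 0.87 and no call. The probe was above background on 3 of 5 wild-type placebo arrays and on all arrays of the other groups, so the size is uncertain. A further kept probe of Cdk1 gave -0.37 ± 0.41 in wild types. Its group means were -4.19 ± 0.83 with placebo and -4.56 ± 0.75 with E2. This probe was above background on 4 of 5 wild-type placebo arrays, 2 of 5 wild-type E2 arrays and no array of nulls. It met the filter only through the wild types with placebo, where it was highest, so the sign of its difference is uncertain. The last of the 3 probes was above background on no array. The first 30 of 60 bases of each probe are shown because they tell the readings apart; coordinates are on build mm9, where the brightest lies apart and the other 2 overlap each other.
Cdk1 brightest probe, chr10:68799513-68799572, minus strand: atacactaaaaatttgggtagccaggaggt
Cdk1 further kept probe, chr10:68801072-68801131, minus strand: ttcttaatttcctacgtataacttaattaa
Cdk1 probe not above background, chr10:68801053-68801112, minus strand: aacttaattaacatgtaaatattattccat
No other gene's probe on the array shared a run of 20 bases, on either strand, with any probe of the 45 genes.

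Ccnb1 encodes cyclin B1, the partner of CDK1. It was above background in all 5 wild types with placebo (-3.86, -3.88, -3.59, -3.97 and -3.89), in 2 of 5 with E2 (-6.09, -4.87, -5.44, -3.26 and -3.29), in 2 of 5 nulls with placebo and in 1 of 5 nulls with E2. It was tested only because of the wild types with placebo, no other group having met the filter. Its E2 animals split into 3 low and 2 high ones around the placebo level. The difference with E2 in wild types was -0.75 ± 0.51 and the interaction -1.04 ± 0.72, with adjusted p-values of 0.709 and 0.799; without the animals numbered below 750 the interaction turned to 0.70. Nulls were lower under placebo by 0.68 ± 0.51 on the log2 scale (adjusted p = 0.707). Ccnb2, cyclin B2, named because its groups did not overlap, was at -1.61, -1.44, -1.79, -1.49 and -1.56 in nulls with placebo and at -2.17, -1.81, -1.96, -1.86 and -2.57 in nulls with E2 (difference -0.49 ± 0.17, adjusted p = 0.818). Nek2, a kinase of centrosome separation, was at -4.15, -4.01, -3.59, -3.07 and -3.38 in wild types with placebo and at -4.14, -4.86, -4.96, -4.30 and -3.41 with E2. In nulls it was at -3.43, -4.37, -3.77, -3.59 and -3.97 with placebo and at -4.92, -4.79, -4.04, -4.41 and -4.61 with E2. Its differences were -0.69 ± 0.27 with E2 in wild types and -0.73 ± 0.27 in nulls, with adjusted p-values of 0.507 and 0.818. It was above background on 5 of 5 arrays in each placebo group and on 2 of 5 in each E2 group, so it met the filter only through the placebo groups, where it was high. Its groups overlapped in both genotypes. Foxm1, the transcription factor of the mitotic wave, had group means of -3.44 ± 0.35, -3.52 ± 0.71, -3.72 ± 0.17 and -3.66 ± 0.26 in the order given for Pcna, and its difference with E2 in wild types was -0.08 ± 0.25. Birc5, survivin, was another gene whose kept probes had opposite signs in wild types, -0.24 ± 0.24 for the brighter and 0.59 ± 0.35 for the other. The brighter was above background on all 20 arrays. The other was above it on 2 of 5 wild-type placebo arrays and 5 of 5 with E2, so its difference is uncertain. The remaining genes of this role, Ccna2, Plk1, Aurka and Cdc20, had differences with E2 in wild types between -0.20 and -0.05.

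Aspm encodes a microtubule protein of the spindle poles and was the only one of the 34 genes called in any comparison. It was above background in all 5 wild types with placebo, at -3.86, -3.17, -2.97, -3.11 and -4.05, and in 2 of 5 with E2, at -5.16, -4.44, -6.02, -4.38 and -4.49. Every E2 animal lay below every placebo animal. In nulls it was above background in 2 of 5 animals of each treatment, at -4.26, -5.04, -4.48, -4.53 and -4.23 with placebo and -4.90, -5.18, -4.83, -4.20 and -4.54 with E2. The wild types with placebo therefore stood above the animals of all 3 other groups. The log2 difference with E2 was -1.47 ± 0.30 in wild types (adjusted p = 0.0355, limma) and -0.22 ± 0.30 in nulls (adjusted p = 0.955). The interaction of -1.24 ± 0.42 did not pass (adjusted p = 0.570), nor did the genotype difference of -1.08 ± 0.30 under placebo (adjusted p = 0.223). The size of these differences rests on arrays that were mostly not above background, so no fold is given: the difference with E2 in wild types was -0.51 in the deposited table and -0.32 with normexp background correction. The call was lost with normexp background correction (adjusted p = 0.522), no filter on dim probes (0.0749), quantile normalization (0.0544), only the groups compared (0.258), slide as a block (0.159), the replicate block (0.0543) and without the animals numbered below 750 (0.321). It was also lost without wild-type placebo animals 2, 3 or 4, without wild-type E2 animals 1 or 3, and without null E2 animal 3 (adjusted p from 0.0541 to 0.131). Within slides the difference was -1.24, -2.49 and -0.63 on slides 1, 2 and 4. The first 30 bases of its single probe, on build mm9, read as follows.
Aspm probe, chr1:141390377-141390436, plus strand: ggatacctggagcagtttttactgtcagtg

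Ect2 encodes the exchange factor that places the cleavage furrow. It was at -1.28, -2.40, -1.83, -1.72 and -1.62 in wild types with placebo and at -3.26, -3.17, -1.95, -2.50 and -2.50 with E2. In nulls it was at -2.44, -2.06, -3.04, -1.18 and -1.38 with placebo and at -1.90, -2.02, -1.22, -0.61 and -1.49 with E2. The lowest group was that of wild types with E2 and the highest that of nulls with E2, and they overlapped only through wild-type animal 3 and null animal 2. The difference with E2 was -0.90 ± 0.35 in wild types and 0.57 ± 0.35 in nulls (adjusted p = 0.491 and 0.848). The interaction was -1.48 ± 0.49 (adjusted p = 0.560), and under E2 nulls were higher by 1.23 ± 0.35 (adjusted p = 0.199). Tpx2, an activator of Aurora A at the spindle, was at -2.79, -2.29, -3.49, -3.30 and -3.73 in wild types with E2 and at -3.97, -5.08, -3.71, -3.80 and -3.27 in nulls with E2. The groups overlapped, and nulls were lower by 0.85 ± 0.34 on the log2 scale (adjusted p = 0.469). Cenpe, a kinetochore motor, was at -4.72, -2.89, -3.98, -3.46 and -2.78 in nulls with placebo and at -2.23, -2.18, -4.29, -2.72 and -3.41 with E2. Its mean was higher with E2 by 0.60 ± 0.37 (adjusted p = 0.852), and without the animals numbered below 750 this became -0.35. Hmmr, a spindle protein, was at 0.89 and 0.65 in null E2 animals 1 and 2 and between -0.23 and -0.16 in the other 3. Mki67, the Ki-67 antigen used as a mark of dividing cells, had group means of -1.84 ± 0.33, -1.97 ± 0.14, -1.88 ± 0.37 and -1.81 ± 0.55 in the order given for Pcna. Its difference with E2 was -0.12 ± 0.22 in wild types and 0.07 ± 0.22 in nulls, and its other kept probe gave -0.14 ± 0.25 and -0.27 ± 0.25. Of the 5 genes with several kept probes, signs differed between probes for 3 with E2 in wild types (Birc5, Cdk1 and Mcm3) and for 3 in nulls (Cdk1, Mki67 and Tk1). The dimmer kept probes of Birc5 and Cdk1 were above background on only 14 and 6 of 20 arrays. Both kept Mcm3 probes were near 0 in wild types, at 0.007 ± 0.136 and -0.004 ± 0.141, so their signs differ without a difference in size.

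**Figure D3:**
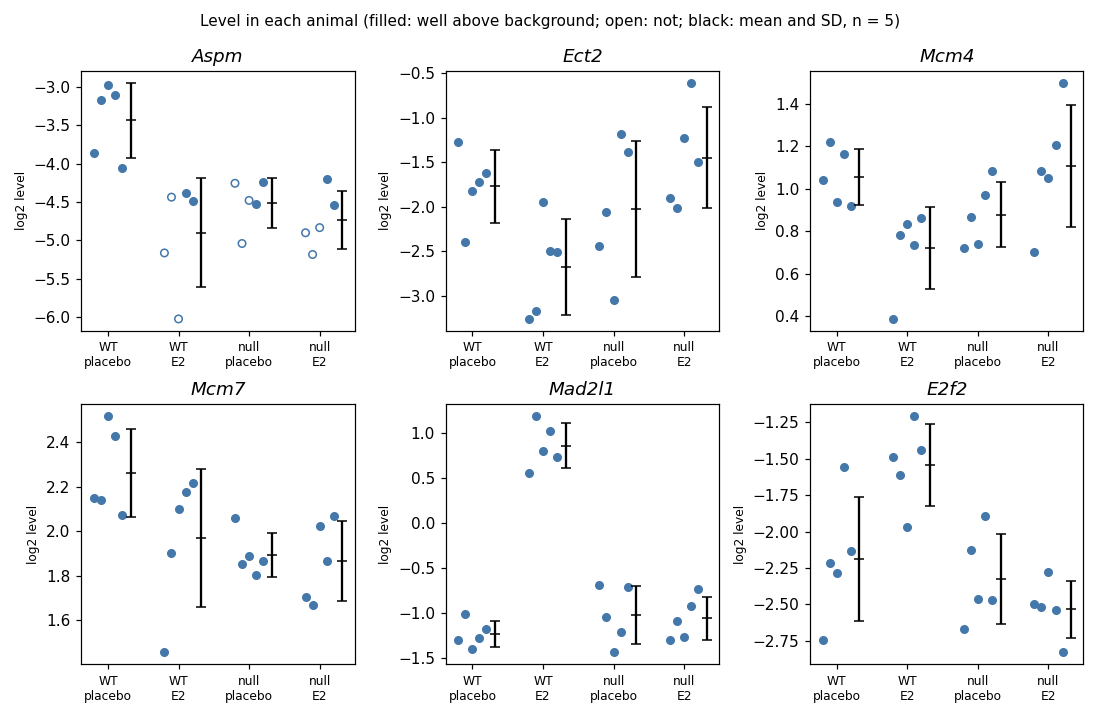
Log2 level of Aspm, Ect2, Mcm4, Mcm7, Mad2l1 and E2f2 in each of 20 animals by group, on axes that differ between panels; filled points are well above background, open ones are not, and black bars give the mean and SD (n = 5). Wild types with placebo stand apart for Aspm, and wild types with E2 stand apart for Mad2l1.

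The set's level in single animals overlapped between all groups. The median deviation of the 34 genes from their means over 20 animals ran from -0.01 to 0.27 in wild types with placebo, -0.27 to 0.15 in wild types with E2, -0.31 to 0.21 in nulls with placebo and -0.29 to 0.19 in nulls with E2. After group means were removed, the 561 pairs of genes had a median correlation of 0.18 over 20 animals. These correlations are descriptions, since all genes of an animal share its array, its scaling and its cells. Among the roles of the set they were highest within the licensing genes, whose 21 pairs had a median of 0.53, and between licensing genes and G1 to S regulators, with 0.40. Correlations of other genes of the array were not computed for comparison. Between genes of DNA synthesis and spindle genes the median was -0.13. The closest pairs were Cdc20 with Prc1 (0.87), an activator of the anaphase-promoting complex and a bundler of the spindle midzone, Mcm6 with Rrm1 (0.84), Mcm3 with Mcm6 (0.79) and E2f8 with Ect2 (0.76).

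**Figure D4:**
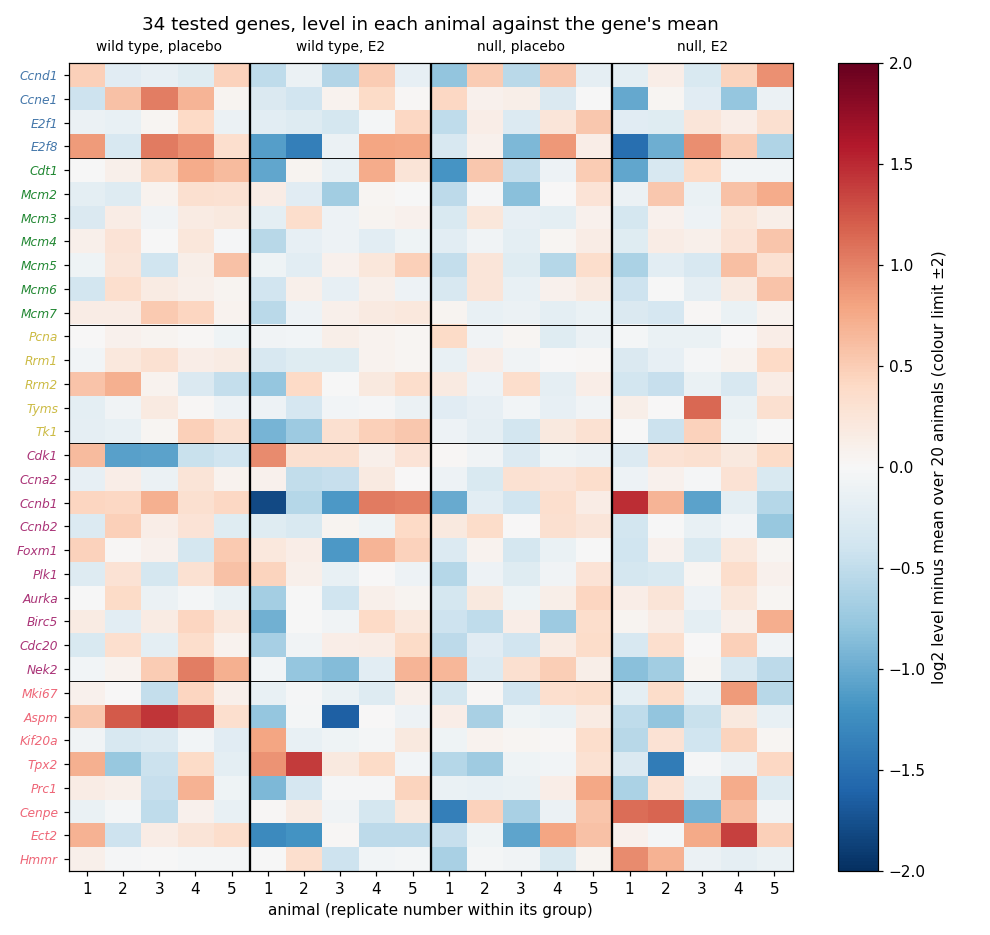
Heat map of the 34 tested genes (rows, ordered by role) in the 20 animals (columns, by group), as the log2 level minus the gene's mean over 20 animals, with colours limited at ±2. Aspm is red in the wild types with placebo, and columns such as wild-type E2 animal 1 are blue over many rows.

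**Figure D5:**
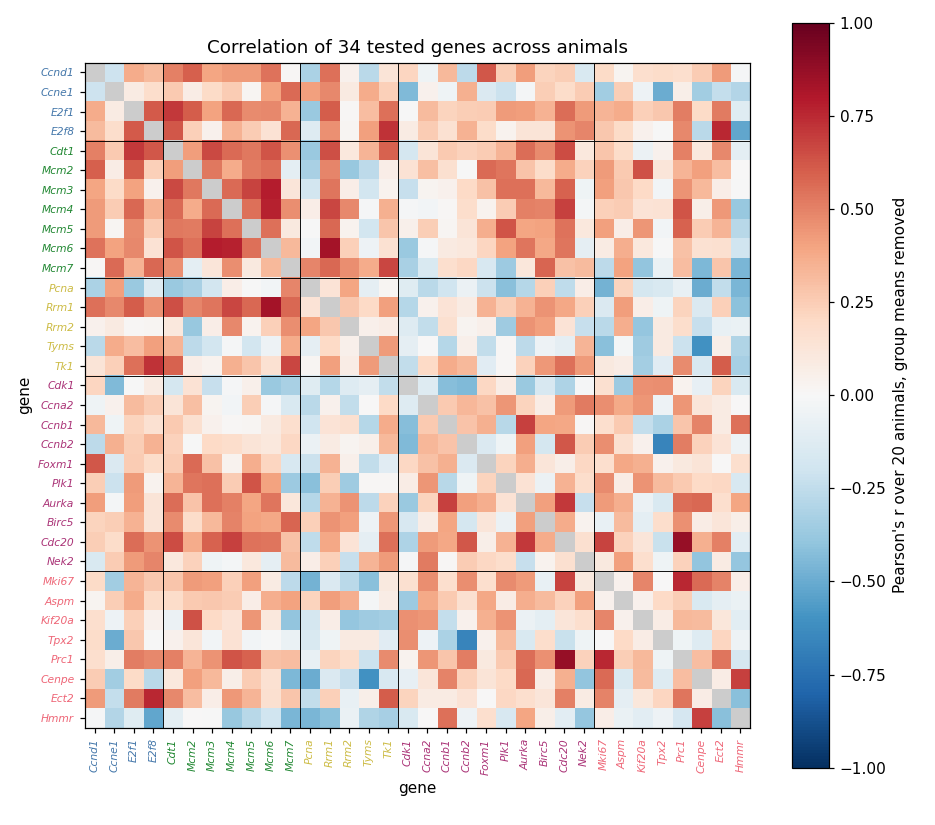
Pearson's r between the 34 tested genes over 20 animals after group means were removed, with genes ordered by role and roles divided by lines; the scale runs from -1 to 1. The block of licensing genes is mostly red (median 0.53).

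Promoters were read for 37 of the 45 genes from a RefSeq table on build GRCm38.p6, as the 250 bases before each annotated start, and scanned on both strands. The E2F motif (TTTGGCGC, TTTCCCGC, TTTCGCGC or TTTGCCGC) was in the promoters of 5 genes, 4 of them licensing genes, or 12.5% of the set's 40 promoters against 1.86% of all 32851. The CHR motif (TTTGAA or TTTAAA) was in 18 genes and 47.5% of promoters against 25.2% of all, and the CCAAT box in 28 genes and 77.5% against 33.8%. An estrogen response element (GGTCA, 3 free bases, TGACC) was in 0 of 40, against 0.0639% of all. Matches that overlap, as a pair of E2F matches in Mcm6 do, were counted separately. Aspm had 2 CHR and 3 CCAAT matches. The promoters of Mcm6 and Cdc20 are shown because each belongs to a pair of genes with closely related levels. That of Cdk1 is shown because it holds all 3 motifs marked here. That of Mad2l1, a checkpoint gene described next that rose with E2, is shown because it held none of these 3. Only exact matches were counted, for the estrogen response element too, so sequences close to a motif were left out. Capitals mark E2F, CHR and CCAAT matches.
Mcm6, chr1:128359706-128359955, minus strand: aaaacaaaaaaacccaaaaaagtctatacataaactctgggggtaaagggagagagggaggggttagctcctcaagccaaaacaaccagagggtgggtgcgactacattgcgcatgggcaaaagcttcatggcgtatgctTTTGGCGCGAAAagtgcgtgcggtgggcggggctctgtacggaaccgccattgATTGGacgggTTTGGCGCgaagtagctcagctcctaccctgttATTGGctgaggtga
Cdc20, chr4:118437344-118437593, minus strand: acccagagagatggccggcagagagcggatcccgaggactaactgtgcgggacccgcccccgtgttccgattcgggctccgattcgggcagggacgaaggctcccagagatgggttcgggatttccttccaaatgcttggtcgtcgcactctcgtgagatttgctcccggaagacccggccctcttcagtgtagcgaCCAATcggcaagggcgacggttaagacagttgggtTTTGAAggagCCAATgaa
Cdk1, chr10:69352913-69353162, minus strand: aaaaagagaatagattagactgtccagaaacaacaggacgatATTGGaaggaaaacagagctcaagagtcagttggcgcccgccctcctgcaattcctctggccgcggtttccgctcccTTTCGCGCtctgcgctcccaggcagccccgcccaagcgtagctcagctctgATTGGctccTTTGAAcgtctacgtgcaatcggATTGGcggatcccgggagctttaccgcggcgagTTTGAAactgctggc
Mad2l1, chr6:66534971-66535220, plus strand: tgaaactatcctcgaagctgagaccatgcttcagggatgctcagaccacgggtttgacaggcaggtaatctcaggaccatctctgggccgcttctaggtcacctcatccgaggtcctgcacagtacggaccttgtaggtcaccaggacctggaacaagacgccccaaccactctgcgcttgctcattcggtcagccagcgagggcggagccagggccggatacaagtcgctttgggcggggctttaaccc

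A further 123 genes of the cell cycle outside the set were listed, of which 95 were tested. With E2 in wild types, 1 of the 95 passed, against 0.318% of all genes, and it rose. This was Mad2l1, which encodes the MAD2 protein that holds back anaphase until chromosomes are attached. It was at -1.30, -1.01, -1.41, -1.28 and -1.18 in wild types with placebo and at 0.56, 1.19, 0.80, 1.02 and 0.74 with E2. Nulls stayed between -1.44 and -0.69 with placebo and between -1.30 and -0.73 with E2. Wild types with E2 stood above every other animal. The rise was 4.29-fold in wild types (2.10 ± 0.15 on the log2 scale, adjusted p = 2.18e-07), the difference in nulls was -0.04 ± 0.15, and the interaction of 2.14 ± 0.22 passed (adjusted p = 5.86e-05). Under E2 nulls were lower by 1.93 ± 0.15 on the log2 scale (adjusted p = 9.09e-07). Its other 2 probes gave rises of 1.44 ± 0.22 and 1.24 ± 0.22 in wild types, but their interactions of 1.33 ± 0.31 and 0.99 ± 0.31 did not pass (p adjusted over probes by limma, 0.143 and 0.517). Under E2 nulls were lower by 1.11 on the log2 scale at the first of them (0.0227), and the second, at -0.91, did not pass (0.0859). The median of the 95 differences was -0.02. With the brightest probe the call in wild types held under every alternative run, with rises from 1.60 to 2.18 on the log2 scale.

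Between genotypes under E2, 2 of the 95 listed genes passed, against 0.464% of all genes, and both were lower in nulls: Mad2l1 and E2f2, an activating E2F factor. E2f2 was at -1.49, -1.61, -1.97, -1.21 and -1.44 in wild types with E2 and at -2.50, -2.52, -2.28, -2.54 and -2.83 in nulls with E2. The groups did not overlap, and the difference was -0.99 ± 0.19 (adjusted p = 0.0190, limma). It was 0.64 ± 0.19 with E2 in wild types (adjusted p = 0.333) and -0.21 ± 0.19 in nulls, and the interaction of 0.85 ± 0.27 did not pass (adjusted p = 0.515). The E2f2 call was lost without wild-type E2 animals 1, 4 or 5 and without null E2 animals 2, 4 or 5 (adjusted p from 0.0510 to 0.0691). It was also lost without the animals numbered below 750 (0.438), scaled on the array median (-0.87, adjusted p = 0.273) and with slide as a block (0.0563). Cdkn1a encodes the CDK inhibitor p21 and ranged from -2.50 to 2.34 among wild types with placebo. It was higher with E2 in wild types by 2.21 ± 0.82 (adjusted p = 0.472). In nulls the difference with E2 was -1.19, and the interaction was 3.40. Under placebo Cdkn1a was higher in nulls than in wild types by 2.01 on the log2 scale. None of these differences passed. Myc was lower in nulls by 1.28 ± 0.48 on the log2 scale under E2 (adjusted p = 0.420) and by 1.02 ± 0.48 under placebo (adjusted p = 0.490). Of the remaining genes followed throughout, Cdkn1b, Ccnd2, Ccnd3, Trp53 and Ccng1, none passed, and their differences with E2 in wild types lay between -0.19 and 0.20.

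Markers of other cells of the liver were read beside these genes. With E2 in wild types all 9 erythroid markers tested, of 12 listed, had differences above 0 (median 0.46) and none passed. The mean of these markers per animal ran from 2.88 to 3.10 in wild types with placebo, 3.24 to 3.65 in wild types with E2, 3.27 to 3.71 in nulls with placebo and 3.15 to 3.55 in nulls with E2, so wild types with placebo lay below all other animals. Alas2 of heme synthesis was higher in nulls than in wild types under placebo by 0.90 ± 0.12 (adjusted p = 0.00251). Klf1 was above background on all 20 arrays. The 7 T and NK cell markers tested, of 10 listed, were also all above 0 in wild types with E2 (median 0.37), with means per animal from -1.64 to -1.23 with placebo and -1.32 to -0.76 with E2, while Ncr1 was above background on 1 array. Kupffer cell markers, 11 of 11 tested, ran from 1.55 to 2.49 with placebo and 1.71 to 3.27 with E2 in wild types. All 11 had differences above 0, as did 10 of 10 sinusoidal endothelial and 5 of 6 B cell markers. The other lists were divided, with 5 of 10 stellate cell, 3 of 5 neutrophil and 3 of 7 cholangiocyte markers above 0. Over all genes 49.4% were below 0 in wild types. With E2 in nulls, 11 of 11 Kupffer cell and 5 of 6 B cell markers were likewise above 0. So were 6 of 10 sinusoidal endothelial, 5 of 7 T and NK cell and 3 of 9 erythroid markers. In nulls 53.1% of all genes were below 0. The part of these cells in the levels of the cell cycle genes was not tested.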

How the data were processed

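Total RNA of 20 livers was labelled with Cy3, per the labels' protocols. Per the file headers, Agilent Feature Extraction 10.10.1.1 gave each spot a processed, background-subtracted intensity and a flag for signal well above background, on build mm9. The authors also deposited a log2 table of 32526 probes, made with limma of unstated version per the submitters' processing notes; it served as an alternative.

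Here log2 intensity minus the 75th percentile of the array was averaged over spots of a probe. Probes above background on 4 of 5 arrays of any group were kept (30960 of 55681), and the brightest per gene was used. Group means of all 20 arrays were fitted in limma 3.58.1 (R 4.3.3), with Benjamini-Hochberg adjustment over 21998 genes and a threshold of 0.05. The fit was tested on simulated data. The number of arrays limits the precision. Whether replicate numbers pair animals was not settled, and the main fit did not pair them. After group means were removed, 12 of 30 same-numbered pairs correlated above 0.1 (range -0.16 to 0.24), and differently numbered pairs were not compared. With the replicate block 90 of all genes passed for E2 in wild types, against 70 in the main fit.

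Values were given for genes that passed, the 3 largest differences per comparison, the 5 brightest genes, and Ccnd1, Cdk1, Mki67, Top2a, Foxm1, E2f1, E2f8 and Mcm2 to Mcm7. They are full for some of these genes and a summary or detection only for others. Other genes named were chosen after their values were seen. The set and all lists were chosen with earlier results of these data known. Alternatives covered scaling, background correction, filters, probe choice, slide, replicate block and animals left out.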

Additional observations from a re-analysis of the deposited data

Results flagged for a closer look

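Each group of 5 animals was examined for an animal far from the others, for the 34 tested genes and for Mad2l1 and E2f2, and 5 of 144 groups had one, where chance would give about 7.2. In wild types with placebo these were Aurka in animal 2 (-2.15, the others at -2.55 or below), Ccnb1 in animal 3 (-3.59, the others at -3.86 or below) and Hmmr in animal 1 (0.0599, the others at -0.05 or below). In wild types with E2, animal 1 was far from the others for Cdk1 (-2.63, the others at -3.24 or below) and for Mcm4 (0.39, the others at 0.74 or above).

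The E2 effect on Mad2l1 differed between genotypes by 2.14 on the log2 scale in the test of the interaction.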

How the results depend on the processing

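With E2 in wild types, 1 gene of the set passed. The count was 0 with quantile normalization, normexp background correction, no filter on dim probes, only the groups compared, slide as a block, the replicate block and without the animals numbered below 750, and 0 to 2 when each animal was left out. The replicate block left Aspm at -1.47 with an adjusted p of 0.0543, and Mad2l1 kept its calls. In the other comparisons the count of 0 held under all alternatives run. Scaling on the array median moved the median of all genes by -0.22 for E2 in wild types and -0.12 in nulls; it put 31 and 23 of 34 genes below 0, and relative to that shift the counts were 28 and 13, as in the main scaling. With no filter, 24 of 45 genes were below 0 for nulls against wild types under E2. Leaving out each animal gave 24 to 30 genes below 0 for E2 in wild types, 10 to 19 in nulls, 23 to 28 for the interaction, 23 to 29 for nulls under placebo and 12 to 19 under E2. Without the animals numbered below 750, the interaction of Ccnb1 became 0.70 and the E2 difference of Cenpe in nulls -0.35. The cause was not tested. That fit held only 13 animals. Over all genes its calls fell from 70 to 41 for E2 in wild types and from 102 to 35 for nulls under E2. Calls lost there were not told apart from the effect of smaller groups. The sign of the E2 difference in wild types held for Aspm (-1.77 to -0.32), Ect2 (-1.19 to -0.50) and Mad2l1 under all alternatives run. The median of 33 genes above background per array was 39 by the software's test of signal above local background and 33.5 with any probe. Dim signal limits Aspm, Ccnb1, Nek2, Foxm1, Cdk1, Tpx2, Prc1 and Cenpe, which were not above background on every array.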
